A study of Mus musculus with 6 samples.

Results

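Nuclear receptors are transcription factors of which many are switched by small lipophilic ligands such as steroids, oxysterols and bile acids, while the orphan members have no agreed natural ligand. The genes described here are those whose symbol has the systematic form Nr, a subfamily digit, a letter from a to h and a digit, and whose mean raw count over the 6 libraries was at least 20. Of 18512 entries in the deposited count table, 21 had such a symbol and 16 also reached the mean count.

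The libraries were labelled as NMuMG cells, an epithelial line derived from mouse mammary gland, although mammary markers were scarce and some hepatocyte markers abundant in DMSO. The 3 groups, each of 2 replicates, were cells given the vehicle DMSO, cells given TGF-β at 5 ng/ml, and cells given TGF-β at 5 ng/ml together with 2APB at 50 uM, called TGF-β+2APB below. TGF-β is a cytokine that drives the epithelial to mesenchymal transition, and 2APB is a blocker of store-operated calcium entry. The study's methods describe serum starvation before the treatments, no library with 2APB alone was analysed here, and the study describes the RNA-seq treatments as lasting a day, while its general methods place 2APB before TGF-β.

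A nuclear receptor binds DNA at short response elements built from a hexamer half-site, alone, as a homodimer, or as a heterodimer with a retinoid X receptor (RXR). Coactivators and corepressors that it recruits then raise or lower transcription of the nearby gene. The farnesoid X receptor FXR (Nr1h4) and LRH-1 (Nr5a2) are best known from liver and intestine, where they control bile acid and cholesterol metabolism. The liver X receptors LXRα (Nr1h3) and LXRβ (Nr1h2) sense oxysterols, the glucocorticoid receptor (Nr3c1) and the mineralocorticoid receptor (Nr3c2) bind corticosteroids, and REV-ERBα and REV-ERBβ (Nr1d1, Nr1d2) bind haem and repress clock genes.

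The upstream sequences are shown for the 4 genes that passed the test between the 2 treated groups. Nr1h4, Nr5a2 and Nr3c2 were lower after TGF-β+2APB than after TGF-β alone, and Nr1d1 was higher. Each is the 250 bases before a RefSeq transcript start on GRCm38.p6, read 5′ to 3′ on the strand of the gene. The windows are chr10:89506659-89506908 (minus strand) for Nr1h4, chr1:136960449-136960698 (minus strand) for Nr5a2, chr8:76902080-76902329 (plus strand) for Nr3c2 and chr11:98775378-98775627 (minus strand) for Nr1d1. Capitals mark the nuclear receptor half-site AGGTCA on either strand, which begins 214 bases before the start in Nr1h4 and 64 bases before it in Nr5a2. A further window of Nr5a2, not shown, held no AGGTCA.
Nr1h4: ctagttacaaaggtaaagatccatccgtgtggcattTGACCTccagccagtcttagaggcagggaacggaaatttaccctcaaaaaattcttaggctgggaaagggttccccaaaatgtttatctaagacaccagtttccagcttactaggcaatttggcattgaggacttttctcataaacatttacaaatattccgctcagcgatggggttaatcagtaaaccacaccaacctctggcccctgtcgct
Nr5a2: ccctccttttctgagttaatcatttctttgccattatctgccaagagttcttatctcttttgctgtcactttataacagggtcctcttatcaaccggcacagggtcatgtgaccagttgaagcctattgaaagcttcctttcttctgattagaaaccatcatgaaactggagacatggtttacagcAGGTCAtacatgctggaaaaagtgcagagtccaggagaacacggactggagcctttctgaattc
Nr3c2: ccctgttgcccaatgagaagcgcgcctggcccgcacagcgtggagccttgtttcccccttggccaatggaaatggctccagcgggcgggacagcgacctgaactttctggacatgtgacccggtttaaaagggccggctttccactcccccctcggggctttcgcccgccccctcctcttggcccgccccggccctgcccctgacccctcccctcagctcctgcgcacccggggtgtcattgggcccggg
Nr1d1: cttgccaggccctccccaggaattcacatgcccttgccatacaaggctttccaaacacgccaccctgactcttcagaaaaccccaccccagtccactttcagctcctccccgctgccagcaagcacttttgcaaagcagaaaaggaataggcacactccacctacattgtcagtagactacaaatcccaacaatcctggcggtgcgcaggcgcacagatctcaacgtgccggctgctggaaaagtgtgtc

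RefSeq windows from 250 bases before to 50 bases after a start were held for 15 of the 16 genes, in 19 windows. AGGTCA on either strand was found in windows of 4 of the 15 genes (Nr1d2, Nr1h4, Nr5a2 and Nr6a1) and in 18.1% of the 27025 genes with a window. The E2-box CAGGTG, a sequence bound by SNAIL and ZEB repressors, was found for 4 of the 15 genes (Nr1h2, Nr1h3, Nr2c2 and a further window of Nr5a2) against 22.6% of all genes. The cAMP response element TGACGTCA was found for Nr6a1 and in 2.03% of all genes. No window of the 15 genes held the E-box CACGTG (8.09% of all genes), the AP-1 site TGANTCA (8.97%), the SMAD-binding CAGA box AGCCAGACA (0.433%) or the hepatic HNF1 site (0.0111%). These matches describe letters in the windows only.

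The genes were compared as normalized counts, which are raw counts scaled by edgeR's TMM factors to the mean library. A gene was called when the Benjamini-Hochberg FDR of edgeR's quasi-likelihood test over 13353 genes was 0.05 or less, and each log2 fold change carries its standard error (SE). With 2 replicates per group, the spread is estimated over all 3 groups together. Every comparison uses libraries that another comparison also uses, so the comparisons are given side by side and are not independent. In these bulk libraries, fewer cells of a type and less RNA per cell cannot be told apart.

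TGF-β alone lowered 7 of the 16 genes and raised 1. Over all genes tested, 41.5% were called in this comparison, 21.8% higher and 19.7% lower. The 7 lower genes were Nr5a2, Nr1h3, Nr3c2, Nr6a1, Nr1h4, Nr3c1 and Nr4a1, and the higher gene was Nr2f1. The median log2 fold change of the 16 genes was -0.06 against -0.01 over all genes tested, and the median size of the change was 0.51 against 0.35. Without DMSO replicate 1, or without DMSO replicate 2, 4 of the 16 were called, and these were Nr5a2, Nr1h3, Nr3c2 and Nr6a1, while the share of all genes called fell to 20.8% and 22%. Without TGF-β replicate 1, or without TGF-β replicate 2, 11 were called, against 52.2% and 57.4% of all genes. At an FDR of 0.01, which 25.2% of all genes passed, 4 were called.

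TGF-β+2APB lowered the same number of genes against DMSO, 7 of 16, and raised 4, against 52.8% of all genes called, 25.6% higher and 27.2% lower. The higher genes were Nr1d1, Nr2f1, Nr4a2 and Nr2f2, and the lower ones Nr5a2, Nr3c2, Nr1h4, Nr1h3, Nr6a1, Nr4a1 and Nr3c1. The median change was -0.10 against -0.0033 over all genes, and its median size 0.73 against 0.44. The count was 6 without DMSO replicate 1 and 7 without DMSO replicate 2, against 33% and 33.6% of all genes. It was 8 at an FDR of 0.01, which 36.6% of all genes passed.

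TGF-β+2APB differed from TGF-β alone in 4 of the 16 genes. Nr1d1 was higher and Nr5a2, Nr1h4 and Nr3c2 were lower, against 17.5% of all genes called, 6.58% higher and 10.9% lower. The median change was -0.03 against -0.0037 over all genes, and its median size 0.22 against 0.23. At an FDR of 0.01, which 4.5% of all genes passed, 3 were called.

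**Figure D1:**
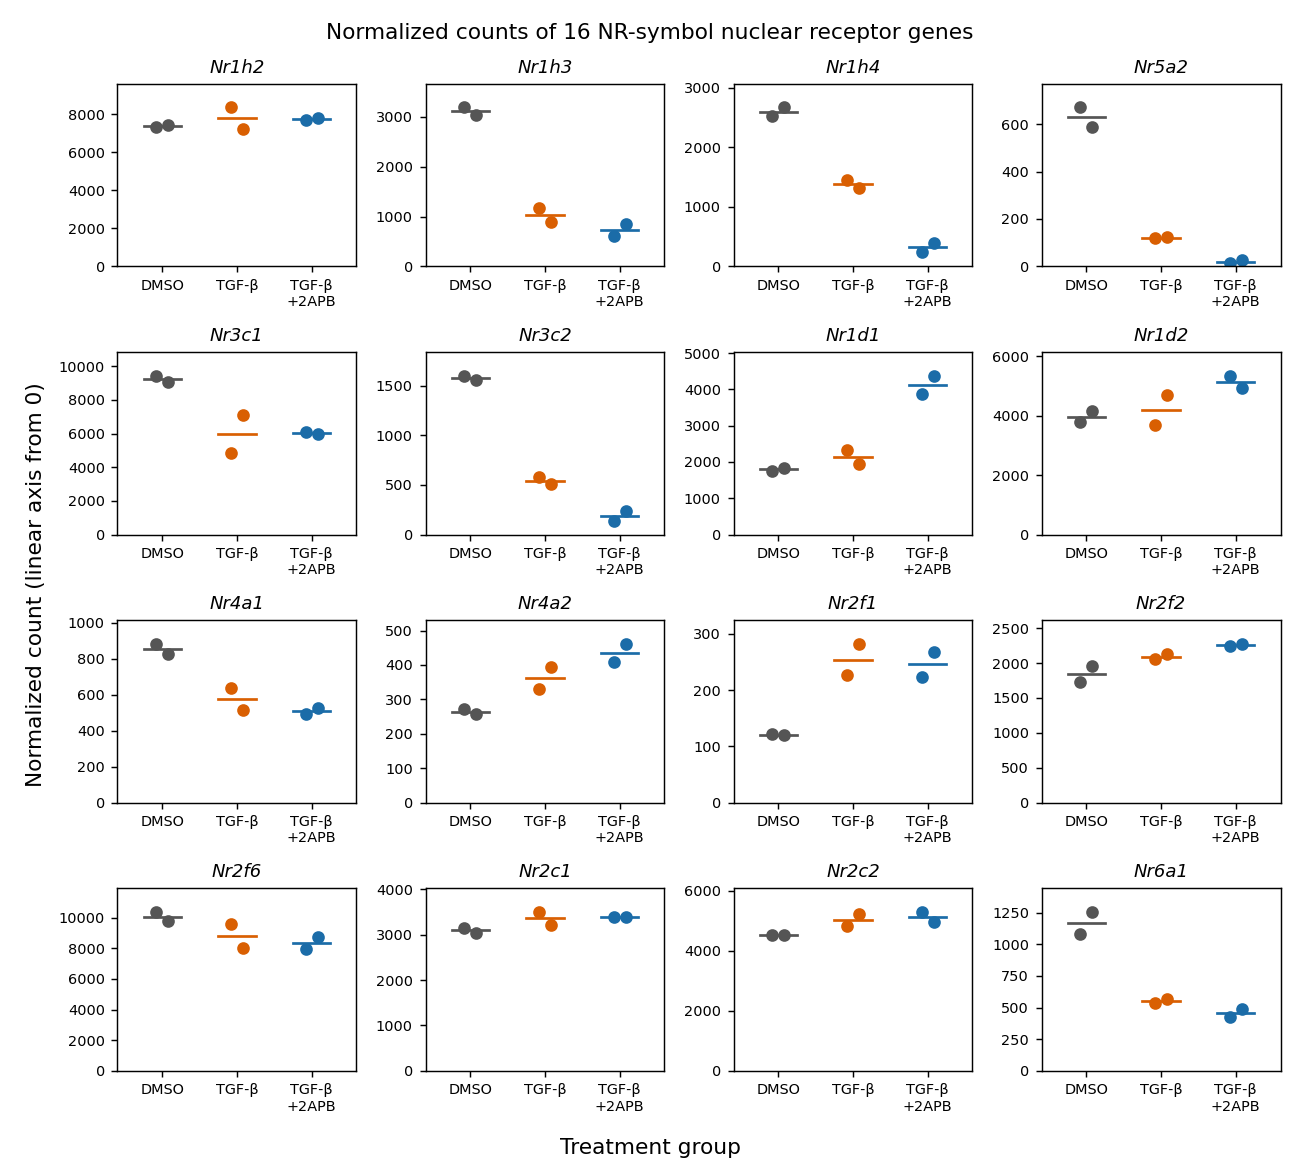
Normalized counts (vertical axes, linear from 0) of the 16 genes in the 3 treatment groups, with 1 point per library and a line at the mean of 2 replicates. Nr1h3, Nr1h4, Nr5a2 and Nr3c2 were among the genes lower in every treated library than in either DMSO library. Nr1d1 stood apart in both TGF-β+2APB libraries.

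**Figure D2:**
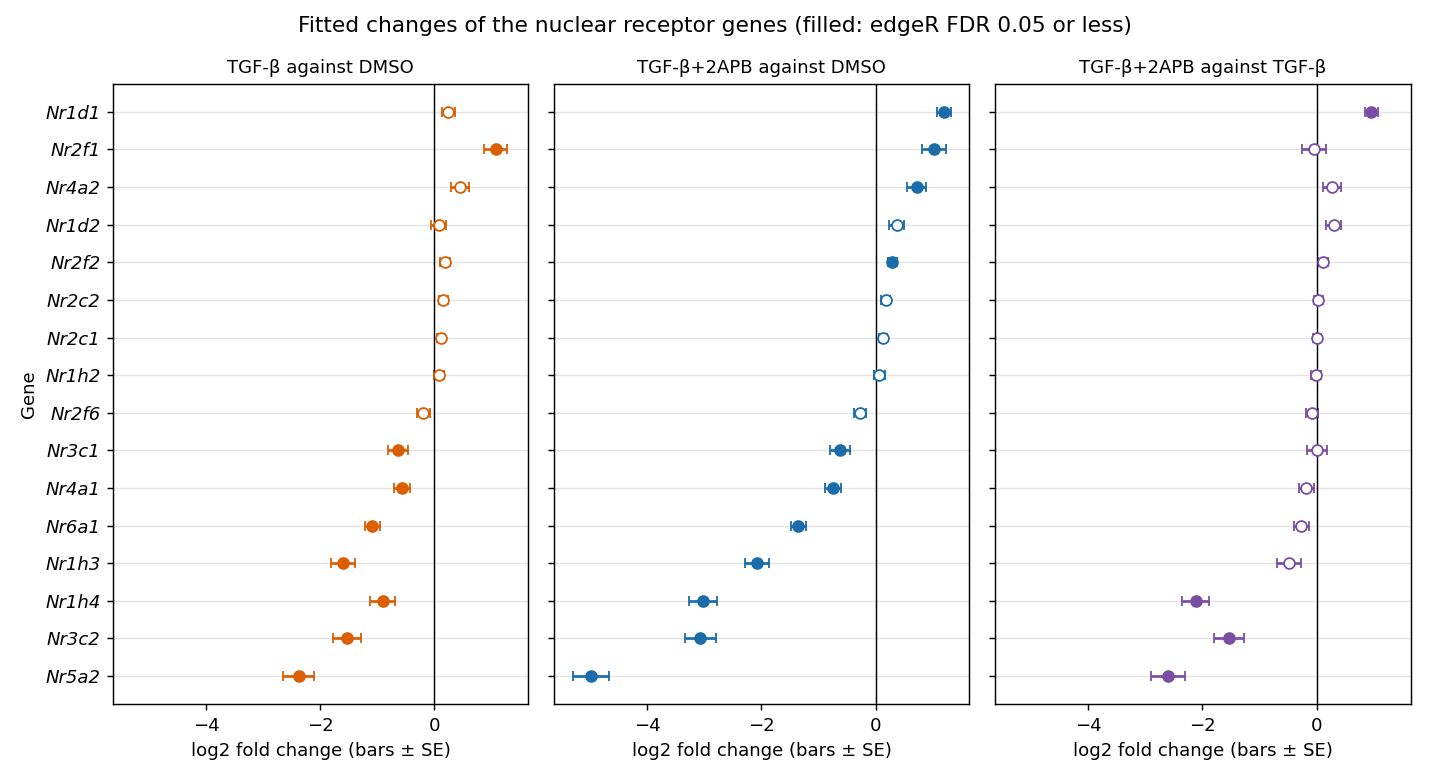
Fitted log2 fold changes (horizontal axes) of the 16 genes in the 3 comparisons, with bars of ± 1 SE and filled points where edgeR's FDR was 0.05 or less. Nr5a2 had the largest change in each comparison, from -2.38 after TGF-β to -4.98 after TGF-β+2APB against DMSO, and Nr1d1 was the one filled point on the right between the 2 treated groups.

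Among the sterol and bile acid sensors, both receptors of the liver-type pair FXR and LXRα fell while LXRβ was not called. Nr1h4 had 2526 and 2669 normalized counts with DMSO, 1451 and 1314 after TGF-β and 238 and 399 after TGF-β+2APB. The 3 groups of Nr1h4 did not overlap. The log2 fold change was -0.91 ± 0.23 (SE, FDR 0.0233, 1.88-fold lower) after TGF-β and -3.03 ± 0.25 (FDR 0.000291, 8.16-fold lower) after TGF-β+2APB against DMSO, both by edgeR. Against TGF-β alone, TGF-β+2APB lowered Nr1h4 by a further 4.34-fold (-2.12 ± 0.24, FDR 0.00635). Its call after TGF-β alone was lost without either DMSO replicate, where the FDR reached 0.114, and the calls after TGF-β+2APB held in each of 16 alternatives. Nr1h4 lies at chr10:89454234-89533585 on the minus strand of GRCm38, and the RefSeq start shown above lies inside this gene model.

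Nr1h3 had 3188 and 3029 normalized counts with DMSO, 1167 and 884 after TGF-β, and 608 and 860 after TGF-β+2APB. Both treated groups lay far below DMSO, and next to each other without overlap. Against DMSO the log2 fold change was -1.60 ± 0.21 (FDR 0.00234, 3.03-fold lower) after TGF-β and -2.08 ± 0.21 (FDR 0.000616, 4.23-fold lower) after TGF-β+2APB, and both calls held in each of 16 alternatives. The difference of -0.48 ± 0.20 between the treated groups did not pass the test (FDR 0.164).

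Nr1h2, which shares its ligands with Nr1h3, had 7323 and 7446 normalized counts with DMSO, 8366 and 7220 after TGF-β, and 7692 and 7797 after TGF-β+2APB. The groups overlapped, and the log2 fold changes against DMSO were 0.08 ± 0.09 (FDR 0.533) and 0.07 ± 0.09 (FDR 0.561). Per length, the level of Nr1h3 was 0.581 and 0.542 times that of Nr1h2 in the DMSO libraries. This ratio was 0.186 and 0.163 after TGF-β and 0.105 and 0.147 after TGF-β+2APB. Nr1h5, a further FXR-type gene, stayed under the minimum with a mean raw count of 9 (12, 12, 6, 6, 10 and 8), against 207 for Nr2f1, the lowest gene inside it.

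Nr5a2 showed the steepest falls of the 16 genes. LRH-1, its product, binds DNA as a monomer and activates genes of bile acid and cholesterol metabolism. It had 670 and 587 normalized counts with DMSO, 119 and 122 after TGF-β, and 13.9 and 25.6 after TGF-β+2APB. The groups were widely separated, and the lowest group rests on 14 and 26 raw counts. Against DMSO the fitted change was -2.38 ± 0.27 (FDR 0.00157, 5.21-fold lower) after TGF-β and -4.98 ± 0.32 (FDR 0.000131, 31.6-fold lower) after TGF-β+2APB. TGF-β+2APB and TGF-β alone differed by -2.60 ± 0.30 (FDR 0.00675), and all 3 calls held in each of 16 alternatives.

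Partner and related genes of LRH-1 were close to absent. Nr0b2 encodes SHP, a receptor without a DNA-binding domain that represses LRH-1, and held at most 10 raw counts (8, 10, 6, 0, 4 and 2). Nr5a1, the gene of the steroidogenic factor SF1, held at most 14 raw counts (2, 0, 2, 4, 2 and 14). Nr2e1 (TLX) held at most 2 and Nr4a3 (NOR1) at most 10. Under the minimum count, no change was tested for these genes.

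Both corticosteroid receptors fell against DMSO, and the mineralocorticoid receptor fell further. Nr3c2 had 1600 and 1552 normalized counts with DMSO, 577 and 510 after TGF-β, and 137 and 239 after TGF-β+2APB, so that the 3 groups did not overlap. Against DMSO its fitted change was -1.54 ± 0.25 (FDR 0.00528, 2.90-fold lower) after TGF-β and -3.07 ± 0.27 (FDR 0.000371, 8.39-fold lower) after TGF-β+2APB. TGF-β+2APB and TGF-β alone differed by -1.53 ± 0.26 (FDR 0.0165). That last call was lost in the fit of only the 4 libraries compared (FDR 0.0569), at an FDR of 0.01, and without either DMSO replicate.

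Nr3c1 had 9440 and 9078 normalized counts with DMSO, 4872 and 7078 after TGF-β, and 6082 and 5968 after TGF-β+2APB. The TGF-β replicates of Nr3c1 differed by more than those of any other of the 16 genes in that group, by 0.54 on the log2 scale, and enclosed both TGF-β+2APB values. The log2 fold change against DMSO was -0.63 ± 0.17 (FDR 0.0324) after TGF-β and -0.62 ± 0.17 (FDR 0.0274) after TGF-β+2APB. Both calls were lost without either DMSO replicate, where the FDR reached 0.147 and 0.121, and the second also without either TGF-β+2APB replicate. The treated groups differed by 0.01 ± 0.17 (FDR 0.971), by -0.23 (FDR 0.0452) without TGF-β replicate 1 and by 0.31 (FDR 0.0139) without TGF-β replicate 2. The ratio of the levels per length of Nr3c2 to Nr3c1 was 0.201 and 0.203 with DMSO, 0.140 and 0.0856 after TGF-β, and 0.0267 and 0.0475 after TGF-β+2APB.

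**Figure D3:**
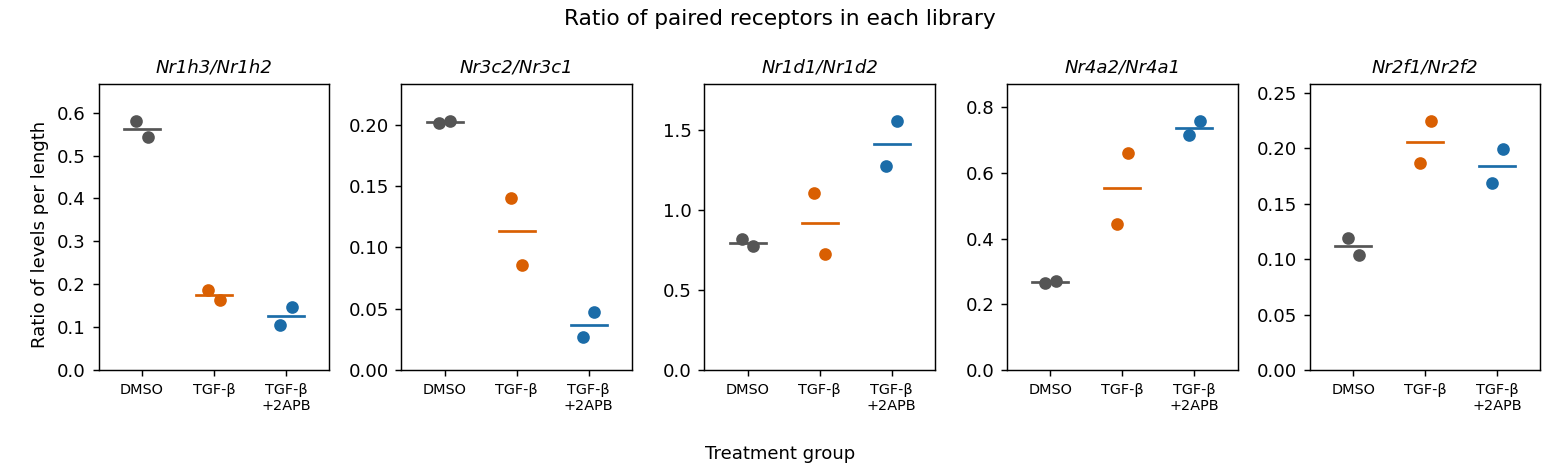
Ratio of the levels per length (vertical axes, from 0) of 5 pairs of related receptors in the 6 libraries, with 1 point per library and a line at the mean of 2 replicates. The Nr1h3 to Nr1h2 and Nr3c2 to Nr3c1 ratios were highest in DMSO, while the Nr4a2 to Nr4a1 and Nr2f1 to Nr2f2 ratios were lowest there.

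The circadian repressor Nr1d1 was the one gene of the 16 that rose between the 2 treated groups. It had 1761 and 1833 normalized counts with DMSO, 2322 and 1932 after TGF-β, and 3874 and 4378 after TGF-β+2APB. Both TGF-β+2APB libraries lay above the 4 others. The log2 fold change was 0.24 ± 0.12 (FDR 0.146) after TGF-β against DMSO, 1.20 ± 0.12 (FDR 0.000535, 2.30-fold higher) after TGF-β+2APB against DMSO and 0.96 ± 0.12 (FDR 0.00716) between the treated groups. The first value passed the test in 1 of 16 alternatives, without TGF-β replicate 2 (FDR 0.0182), and the other 2 calls held in all 16.

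Exons of Nr1d1 (chr11:98767932-98775333, minus strand) share 263 bases, 8.55% of its length, with Thra, a thyroid hormone receptor gene on the opposite strand. The strand setting of the counting was not given, so reads in the shared bases cannot be assigned. Thra fell by 0.92 (SE 0.12, FDR 0.00226) after TGF-β and by 1.24 (SE 0.12, FDR 0.0005) after TGF-β+2APB on the log2 scale against DMSO. The part of the shared bases in the value of Nr1d1 was not tested.

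Nr1d2, the other REV-ERB gene, had 3789 and 4159 normalized counts with DMSO, 3684 and 4694 after TGF-β, and 5355 and 4950 after TGF-β+2APB. The TGF-β+2APB libraries were the highest, but the log2 fold change of 0.37 ± 0.13 against DMSO missed the threshold (FDR 0.0576). It passed in 6 of 16 alternatives, among them DESeq2, with FDR values from 0.0051 to 0.26 over all 16. The ratio of the levels per length of Nr1d1 to Nr1d2 was 0.817 and 0.775 with DMSO, 1.11 and 0.724 after TGF-β, and 1.27 and 1.55 after TGF-β+2APB.

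The NR4A genes, early-response genes whose receptors act without a known physiological ligand, moved in opposite directions. Nr4a1 (NUR77) had 884 and 826 normalized counts with DMSO, 639 and 517 after TGF-β, and 495 and 527 after TGF-β+2APB. Both treated groups lay below DMSO and overlapped each other. Fitted changes against DMSO were -0.57 ± 0.14 (FDR 0.0211) after TGF-β and -0.74 ± 0.14 (FDR 0.00602) after TGF-β+2APB. The former was lost without either DMSO replicate (FDR up to 0.141) and without TGF-β+2APB replicate 1, and the latter without DMSO replicate 1 (FDR 0.0524).

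Nr4a2 (NURR1) had 271 and 258 normalized counts with DMSO, 329 and 394 after TGF-β, and 410 and 462 after TGF-β+2APB. The 3 groups followed each other upwards without overlap. Against DMSO, the log2 fold change of 0.45 ± 0.16 after TGF-β missed the threshold (FDR 0.0687), and that of 0.72 ± 0.16 after TGF-β+2APB passed it (FDR 0.0117). The latter was lost without either DMSO replicate (FDR up to 0.0857). The ratio of the levels per length of Nr4a2 to Nr4a1 went from 0.265 and 0.270 with DMSO to 0.445 and 0.660 after TGF-β and 0.716 and 0.758 after TGF-β+2APB.

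The COUP-TF genes encode orphan receptors that mostly repress transcription. Nr2f1 (COUP-TFI), the least abundant of the 16 with DMSO, had 122 and 120 normalized counts there, 226 and 282 after TGF-β, and 224 and 268 after TGF-β+2APB. All 4 treated libraries lay above DMSO, and the treated groups overlapped. Its fitted log2 change against DMSO was 1.07 ± 0.21 (FDR 0.0101, 2.10-fold higher) and 1.02 ± 0.21 (FDR 0.00883, 2.03-fold higher). Both calls were lost without either DMSO replicate, where the FDR reached 0.0757 and 0.0645.

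Nr2f2 (COUP-TFII) had 1730 and 1952 normalized counts with DMSO, 2051 and 2127 after TGF-β, and 2247 and 2277 after TGF-β+2APB. The log2 fold change after TGF-β+2APB against DMSO was 0.30 ± 0.09 (FDR 0.0307), a small rise that 6 of 16 alternatives did not call, library size scaling and each library left out of the DMSO and TGF-β+2APB groups among them. Nr2f6 (EAR2) had 10380 and 9764, then 9582 and 8037, then 7953 and 8711 normalized counts in the same order. Its log2 fold change of -0.27 ± 0.11 after TGF-β+2APB against DMSO was not called (FDR 0.0837), although the groups did not overlap, and it was called in 5 of 16 alternatives, with FDR values from 0.0119 to 0.353 over all 16. On the opposite strand, Ocel1 overlaps 54.4% of the exon length of Nr2f6, and it fell by 0.91 (SE 0.15, FDR 0.00404) in that comparison. Ocel1 held 644 and 612 raw counts with DMSO, against 10562 and 9452 for Nr2f6. The part of shared reads in either value was not tested.

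The remaining orphan receptors were TR2 and TR4 (Nr2c1, Nr2c2), which are related repressors, and GCNF (Nr6a1), a repressor of pluripotency genes in embryonic and germ cells. Nr6a1 had 1085 and 1256 normalized counts with DMSO, 538 and 564 after TGF-β, and 424 and 491 after TGF-β+2APB, without overlap between groups. It fell by 1.09 (SE 0.13, FDR 0.00177, 2.12-fold) and by 1.36 (SE 0.13, FDR 0.000525, 2.56-fold) on the log2 scale against DMSO, and both calls held in each of 16 alternatives.

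Nr2c1 ranged from 3035 to 3506 normalized counts over the 6 libraries, and Nr2c2 from 4514 to 5298. Neither was called in any comparison, and the log2 fold changes against DMSO were 0.12 ± 0.07 and 0.13 ± 0.07 for Nr2c1 and 0.15 ± 0.08 and 0.18 ± 0.08 for Nr2c2 (FDR from 0.104 to 0.229). Mrps25, on the opposite strand, overlaps 30.7% of the exon length of Nr2c2. For both genes, the alternatives that raised these differences past the threshold were the fit without a TGF-β replicate or, for TGF-β+2APB, the fit of only the 4 libraries compared.

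To compare genes with each other, normalized counts were divided by library size and exon length, a level called CPM per kilobase here. In DMSO, Nr2f6 had the highest level, 44.2 ± 1.91 (SD, n = 2), followed by Nr1h2 with 28.8 ± 0.338. Nr1h3 with 16.2 ± 0.586, Nr3c1 with 15.8 ± 0.436 and Nr1h4 with 14.8 ± 0.577 came next. The pairs Nr1h3 and Nr3c1, Nr4a1 and Nr3c2, and Nr6a1 and Nr5a2 were neighbours whose DMSO means differed by less than their SDs. The lowest levels were those of Nr4a2, 0.853 ± 0.0296, and Nr2f1, 0.310 ± 0.00369.

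The levels of the 16 genes added up to 163.8 and 161.8 CPM per kilobase with DMSO, 139.4 and 129.98 after TGF-β, and 131.4 and 138.8 after TGF-β+2APB. Nr1h3 supplied 9.93% of this sum in DMSO, 3.96% after TGF-β and 2.83% after TGF-β+2APB. For Nr1h4 the shares were 9.06%, 5.83% and 1.34%, and its rank among the 16 levels went from 5 to 7 to 11. Nr1d1 went the other way, from 4.69% and rank 8 to 6.71% and rank 6 to 12.99% and rank 3. With the length of the longest transcript in place of all exons, Nr1h2 and not Nr2f6 was highest after TGF-β+2APB.

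**Figure D4:**
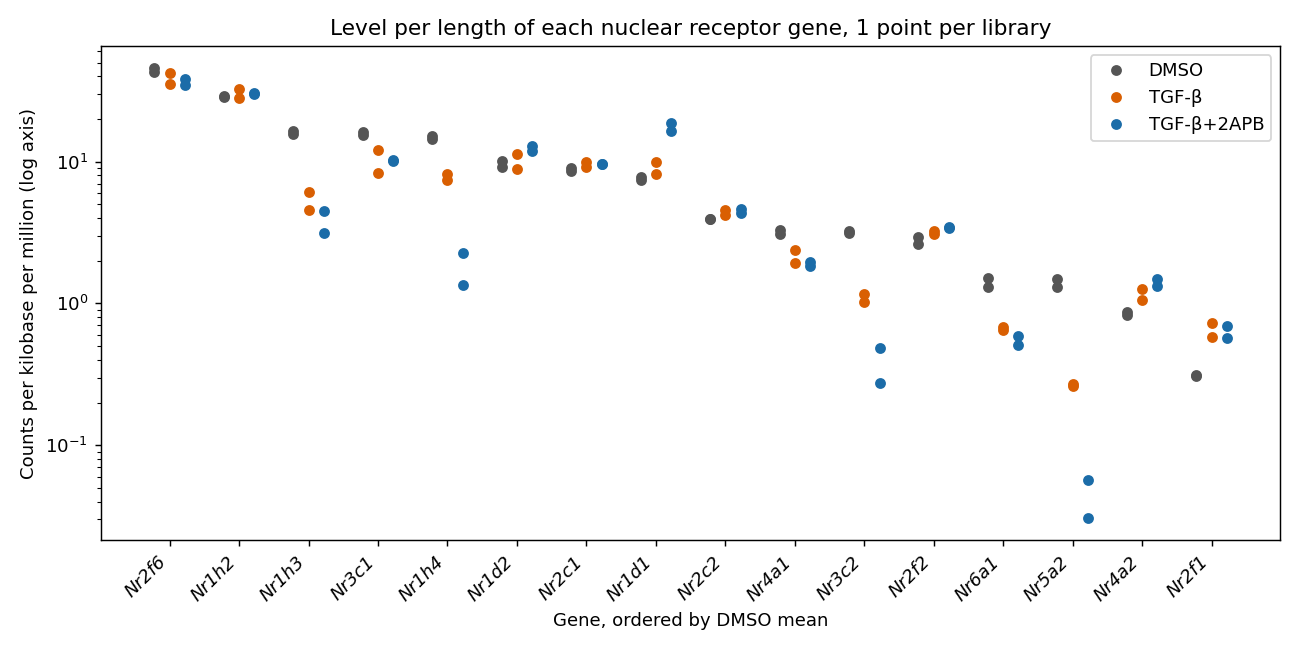
Levels per length (vertical axis, CPM per kilobase, log scale) of the 16 genes, ordered by their DMSO mean, with 1 point per library in the 3 treatment groups. Nr5a2 spanned the widest range, from 1.39 in the DMSO mean to 0.0438 in the TGF-β+2APB mean, while Nr2f6, Nr1h2 and the TR2 and TR4 genes stayed close to their DMSO level.

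RXR proteins are the heterodimer partners of some of these receptors. Rxra had 8306 and 8008 normalized counts with DMSO, 8027 and 6732 after TGF-β, and 6502 and 6521 after TGF-β+2APB. Its log2 fold change after TGF-β+2APB was -0.33 ± 0.10 (FDR 0.0385, and from 0.0021 to 0.19 over the alternatives), and Rxrb was not called in any comparison. Rxrg held between 8 and 18 raw counts. Of 24 nuclear receptors with other symbols on a list, 15 were tested, and 2 were higher and 8 lower after TGF-β (median log2 fold change -0.71, against -0.01 over all genes tested). With TGF-β+2APB against DMSO, 1 was higher and 9 lower (median -0.84). Each total was 66.7% of those tested, against 41.5% and 52.8% of all genes. The rises were led by Rarg with 0.40 ± 0.11 after TGF-β and Rara with 0.55 ± 0.08 after TGF-β+2APB. Between the treated groups edgeR called 0 of the 15, against 17.5% of all genes, and 8 had an unadjusted p of 0.05 or less. DESeq2 with its prior called 3, against 24.9% of all genes.

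Of 20 coregulator genes, 1 rose and 8 fell after TGF-β (median -0.13), and 3 rose and 9 fell after TGF-β+2APB (median -0.27). Between the treated groups 15% of the list was called, against 17.5% of all genes. The totals against DMSO were 45% and 60% of the list, near the 41.5% and 52.8% of all genes. The latter total of 12 was 5 without TGF-β+2APB replicate 1 and 5 without replicate 2, where 37.9% and 39.4% of all genes were called. Nrip1, a ligand-dependent corepressor, rose by 1.41 (SE 0.15) and 1.51 (SE 0.16) on the log2 scale. Ppargc1b, a coactivator of several nuclear receptors, changed by -1.42 after TGF-β, by -0.64 after TGF-β+2APB and by 0.78 between the treated groups. Lcor, a corepressor, changed by -0.93 ± 0.25 after TGF-β+2APB. From TGF-β to TGF-β+2APB 1 coregulator rose and 2 fell, led by Ncoa3 with -0.32 ± 0.07. With 1 TGF-β+2APB library left out, fewer coregulators were called here, as were fewer of all genes. Ppargc1a was not called, with 863 and 855 normalized counts in DMSO, 392 and 610 after TGF-β, and 489 and 694 after TGF-β+2APB.

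Textbook targets of the receptors that fell were also examined, as lists of which the direction is given without a test. Of 14 tested LXR targets, 3 were higher and 7 lower after TGF-β (median -1.27). After TGF-β+2APB, 2 were higher and 8 lower against DMSO (median -1.002). Each total was 71.4% of those tested, against 41.5% and 52.8% of all genes. Srebf1, a master regulator of fatty acid synthesis, changed by -1.35 ± 0.10, -2.01 ± 0.10 and, between the treated groups, -0.66 ± 0.10. Abca1, which exports cholesterol, changed by -3.12 ± 0.65 and -4.22 ± 0.70. Its TGF-β+2APB libraries lay far apart, at 30 normalized counts in replicate 1 and 166 in replicate 2. Apoc1 had 134 and 143 normalized counts in DMSO and 0 in the 4 treated libraries. Against a floor of 3 counts per library, it was at least 45.8-fold lower after TGF-β and at least 46.6-fold lower after TGF-β+2APB. All deposited counts were even numbers, so a read may have been counted more than once. The bounds from 0 given here and below would then be smaller. Mylip, which promotes breakdown of the LDL receptor, rose by 1.82 (SE 0.32) and 2.56 (SE 0.32). Between the treated groups, the sterol exporter Abcg8 was called higher, from 0 in both TGF-β libraries to 4 and 6 raw counts. This call was lost in edgeR with the replicate number as a block (FDR 0.0646), and no minimum fold is given for such low values. In that comparison 1 LXR target was higher and 3 were lower, 28.6% of those tested against 17.5% of all genes. Scd2, a fatty acid desaturase, changed by -0.68 ± 0.11. With 1 TGF-β+2APB library left out, the LXR targets called and their split by direction changed, and fewer of all genes were called.

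Abcg1, another LXR target, had 33 and 14 normalized counts with DMSO, 29 and 17 after TGF-β, and 32 and 306 after TGF-β+2APB. The last value belongs to TGF-β+2APB replicate 2, in which the leukocyte marker Ptprc (742 against 36 in replicate 1) and the macrophage marker Cd68 (620 against 119) were high as well. Over the 5 blood and endothelial markers, the summed normalized count ran from 415 to 487 with DMSO, 226 to 296 after TGF-β and 182 to 1411 after TGF-β+2APB, and Cd3e was at 0 in all but 1 library. The part of these marker levels in the results was not tested. Without that replicate, the calls among the 16 genes numbered 8 after TGF-β, 9 after TGF-β+2APB and 4 between the treated groups, against 35.6%, 39.4% and 9.44% of all genes.

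The bile acid list, of targets of FXR, SHP and LRH-1, was mostly silent, since 3 of its 14 genes passed the minimum count. Slc10a2, the ileal bile acid transporter, had 242 and 238 normalized counts with DMSO, 10 and 23 after TGF-β, and 0 and 6 after TGF-β+2APB. Its changes were -3.87 ± 0.83 (FDR 0.0139) and -6.28 ± 0.99 (FDR 0.00333), while Scarb1, a receptor for HDL, rose by 1.06 (SE 0.09) and 1.17 (SE 0.09). Between the treated groups edgeR called none of the 3, against 17.5% of all genes. None had an unadjusted p of 0.05 or less, and DESeq2 called 0. The receptors PXR and CAR (Nr1i2, Nr1i3) lie outside the letters of the symbol rule. Of 11 tested genes known as their targets, 8 were lower after TGF-β and 10 after TGF-β+2APB (medians -2.84 and -4.33), and none was higher. These were 72.7% and 90.9% of those tested, against 41.5% and 52.8% of all genes called. The conjugating enzyme gene Gsta1 had 112 and 124 normalized counts with DMSO and 0 after TGF-β, at least 39.1-fold lower by the 3-count floor. The cytochrome gene Cyp2c55 had 200 and 158 raw counts with DMSO and at most 2 in each treated library. Between the treated groups 3 were lower, 27.3% of those tested against 17.5% of all genes called. Among them was the bilirubin-conjugating Ugt1a1, with 44 and 58 raw counts in DMSO, 26 and 10 after TGF-β and 2 and 0 after TGF-β+2APB.

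Genes of the circadian clock, which REV-ERB receptors repress in part, moved both ways. Of 13 tested, 5 were higher and 6 lower in each treated group against DMSO (medians -0.34 and -0.16). Between the treated groups 1 was higher and 2 lower. These calls were 84.6%, 84.6% and 23.1% of those tested, against 41.5%, 52.8% and 17.5% of all genes. Bhlhe40 (DEC1) rose by 1.47 (SE 0.11) and 2.50 (SE 0.12) against DMSO and by 1.03 (SE 0.11) between the treated groups. Per2 changed by -0.73, -1.61 and -0.87 on the log2 scale in the same order, and Per3 by -0.43, -1.49 and -1.06. Dbp, an output gene of the clock, changed by -0.95 ± 0.27 and -1.56 ± 0.28 against DMSO. Arntl (BMAL1), a direct REV-ERB target, changed by -0.52 ± 0.11 (FDR 0.0148) and -0.49 ± 0.11 (FDR 0.0141), and differed by 0.03 ± 0.11 between the treated groups (FDR 0.87). Its normalized counts were 769 and 760 with DMSO, 526 and 542 after TGF-β, and 582 and 509 after TGF-β+2APB.

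Of 15 tested targets of the corticosteroid receptors, 8 were higher and 5 lower after TGF-β, and 7 higher and 7 lower after TGF-β+2APB (medians 0.90 and 0.52). These totals were 86.7% and 93.3% of those tested, against 41.5% and 52.8% of all genes. Fkbp5, a chaperone that restrains the glucocorticoid receptor, rose by 1.90 (SE 0.10), 2.34 (SE 0.10) and, between the treated groups, 0.44 (SE 0.10). Sgk1, a kinase gene induced by both receptors, rose by 0.90 (SE 0.11), 2.18 (SE 0.11) and 1.28 (SE 0.11). Tsc22d3 (GILZ) changed by -0.77 ± 0.13 (FDR 0.00368) after TGF-β+2APB, and its change of -0.25 ± 0.12 after TGF-β was not called (FDR 0.16). The metallothionein Mt1 changed by -1.45 ± 0.24 and -2.09 ± 0.25, and Mt2 by -1.49 ± 0.33 between the treated groups. Zbtb16 was at 0 in both TGF-β+2APB libraries, at least 22.4-fold lower than with DMSO by the 3-count floor. Hsd11b1, the enzyme that regenerates active glucocorticoid, rose by 2.52 (SE 0.30) and 2.51 (SE 0.30). The treated groups differed in 5 of the 15 (33.3%, against 17.5% of all genes), with 3 higher and 2 lower after TGF-β+2APB. With 1 TGF-β+2APB library left out, fewer of the 15 were called, as were fewer of all genes.

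Among 15 early-response genes that accompany the NR4A genes, 3 were higher and 6 lower after TGF-β (median -0.35). After TGF-β+2APB, 4 were higher and 5 lower against DMSO (median -0.13). Between the treated groups 4 were higher. These calls were 60%, 60% and 26.7% of the list, against 41.5%, 52.8% and 17.5% of all genes. Without TGF-β+2APB replicate 1, fewer of the list were called higher between the treated groups, and fewer of all genes were called as well. Fos had 2673 and 1667 normalized counts with DMSO, 183 and 75 after TGF-β, and 67 and 105 after TGF-β+2APB. Fosb went the other way, with a log2 fold change of 1.24 ± 0.21 after TGF-β, 3.35 ± 0.22 after TGF-β+2APB and 2.10 ± 0.21 between the treated groups.

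The cells were checked against their label. Total counts ran from 71840570 to 79473182 per library, all values were even numbers, and the epithelial cadherin gene Cdh1 was abundant with 91180 and 90601 normalized counts in DMSO. Of 7 epithelial markers, 3 rose and 4 fell after TGF-β, from -2.04 ± 0.35 for Krt19 to 7.45 ± 0.36 for Cldn4. All 5 mesenchymal markers rose, led by Col1a1 with 4.74 ± 0.23. Of all genes, 21.8% were called higher and 19.7% lower after TGF-β. Of the mammary markers, Krt14 was at 0 in both DMSO libraries, Elf5 held 18 and 8 raw counts and Gata3 34 and 28, and Csn2 and Wap were not analysed here.

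Set against the mammary label, the 3 mammary markers analysed were absent or scarce in DMSO, while the hepatocyte markers Alb, Ttr and Apoa1 were high there. The mammary identity of the cells was thus not borne out by these markers. In DMSO, Alb had 31570 and 28821 normalized counts, Ttr 17200 and 15245 and Apoa1 10820 and 9101. With TGF-β, Alb had 94 and 42, Ttr 27 and 4 and Apoa1 21 and 6. Of the 6 hepatocyte markers, Tat was under the minimum count, and 4 of the 5 tested fell in each treated group against DMSO. Of all genes, 19.7% were called lower after TGF-β and 27.2% after TGF-β+2APB. Apob went the other way between the treated groups, where it was called higher after TGF-β+2APB. The sum of all 6, mostly Apob, ran from 419269 to 429854 normalized counts with DMSO, 198888 to 329398 after TGF-β, and 532012 to 592585 after TGF-β+2APB, with Fga and Tat at 0 in both libraries of the last group. Nr1h4, Nr1h3 and Nr5a2 fell in the same libraries as Alb, Ttr and Apoa1, and the part of these marker levels in their values was not tested.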

How the data were processed

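RNA-seq counts of 6 libraries labelled as NMuMG cells were analysed. The authors sequenced single-end reads of oligo-dT selected RNA, aligned them with TopHat2 2.0.13 and deposited raw counts per gene from featureCounts, without scaling. FastQC 0.11.2 and DESeq2 1.6.1 also stand in the submitters' processing notes. These notes name the mouse build mm10 and the methods the human build hg19, while the symbols are those of mouse. The strand setting, the annotation and the treatment of reads with several alignments were not given in the sources used here. The table held 18512 entries, of which 25 names had been turned into dates and 17551 (94.8%) matched a GENCODE M21 symbol.

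The deposited counts were fitted with edgeR 4.0.16 under R 4.3.3 (limma 3.58.1 loaded beside it). TMM factors scaled the libraries, a mean normalized count of 20 or more was required, and the 3 groups were fitted in 1 model without covariates, tested by the quasi-likelihood F-test with Benjamini-Hochberg FDR over 13353 genes. The SE was taken as the absolute log2 change over the root of the F value. Replicates were compared as biological replicates, as the study states. The total per library, from 71840570 to 79473182 counts, sets a precision that the floor of 3 counts describes for counting error only. As all deposited counts were even numbers, this floor may stand for fewer reads than counts. Alternatives were scaling by RLE or library size, no filter, DESeq2 1.42.0 with and without its prior, the replicate number as a block, only the 4 libraries compared, an FDR of 0.01, halved counts and each library left out. A block with exchanged numbers was chosen after seeing the data. Levels were divided by exon length, or by the longest transcript. The procedure was tested on simulated data. Python 3.11.15, pandas 2.3.3 and matplotlib 3.10.9 made the tables and plots.

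All genes of the symbol rule are named, and from each list of related genes those with the largest called rise and fall in a comparison, besides Rxra, Rxrb, Rxrg, Ppargc1a, Nrip1, Arntl, Abca1, Abcg1, Srebf1, Fkbp5, Tsc22d3 and Fos. A named gene of the other nuclear receptors is not reported here. The members and lists were chosen with earlier results of these data known. Marker genes were named as a check of the label, and genes that overlap a member on the other strand after the overlap was found.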

Additional observations from a re-analysis of the deposited data

How the results depend on the processing

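The counts of called genes among the 16 nuclear receptor genes stayed within 1.5 times under RLE and library size scaling, no filter, both DESeq2 tests, the replicate block, the fit of only the 4 libraries compared and halved counts. Library size scaling left 11 called with TGF-β+2APB against DMSO, 3 higher and 8 lower, while 53.8% of all genes were called. Nr2f2 lost and Nr2f6 gained a call there. At an FDR of 0.01, 4 of 16 were called with TGF-β against DMSO, where 25.2% of all genes were called. With 1 library left out at a time, the count ran from 4 to 11 with TGF-β against DMSO, from 6 to 15 with TGF-β+2APB against DMSO and from 3 to 6 between the treated groups, while the share of all genes called ran from 20.8% to 57.4%, 33% to 67.4% and 6.41% to 40.6%, and the lone library of a group was assumed to vary like the others. The summed level per length in DMSO was 162.8 with all exons and 221.5 CPM per kilobase with the longest transcript.

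No change of a single gene that was called with all libraries turned its direction. Uncalled log2 fold changes between the treated groups turned for Nr1h2 under RLE scaling (0.0085) and DESeq2 without (0.0085) and with (0.0084) its prior, and under library size scaling for Nr2c1 (-0.024), Nr2c2 (-0.0090) and Nr3c1 (-0.026). With 1 library left out, further values that were not called with all libraries spanned both directions. After TGF-β against DMSO they ran from -0.11 to 0.25 for Nr1d2 and -0.026 to 0.18 for Nr1h2. Between the treated groups they ran from -0.11 to 0.10 for Nr1h2, -0.049 to 0.073 for Nr2c1, -0.053 to 0.088 for Nr2c2, -0.20 to 0.12 for Nr2f1, -0.20 to 0.053 for Nr2f6 and -0.23 to 0.31 for Nr3c1. The causes were not tested.

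Whether libraries with the same replicate number belong together was not stated, and correlations across genes cannot decide it. Replicate differences correlated across genes by 0.15 between DMSO and TGF-β, by -0.46 between DMSO and TGF-β+2APB and by -0.26 between the treated groups. The replicate block gave 8, 11 and 4 called genes of the 16 in the 3 comparisons, as without it. It called 35.5%, 47.6% and 10.1% of all genes, in place of 41.5%, 52.8% and 17.5%. With the TGF-β+2APB numbers exchanged, the block gave 8, 13 and 4, against 42.7%, 54.2% and 18.5% of all genes.

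Replicates differed by 0.33, 0.57 and 0.78 (SD of the log2 difference over all genes) with DMSO, TGF-β and TGF-β+2APB. The median absolute log2 difference of the 16 genes was 0.07, 0.23 and 0.15, a measure that cannot be set against an SD. The widest gaps of the 16 after TGF-β+2APB were those of Nr5a2 (0.84), Nr3c2 (0.80) and Nr1h4 (0.74). Small changes such as that of Nr2f2 rest on few libraries.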
